A study of Rattus norvegicus with 8 samples.

Results

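The enzymes that make and break down heme were followed in the livers of rats that drank hydrogen water. The group comprises 9 genes, the synthesis enzymes Alas1, Alad, Urod, Cpox and Fech, the heme oxygenases Hmox1 and Hmox2, and the biliverdin reductases Blvra and Blvrb. They were taken by name, as genes of heme synthesis and breakdown, with earlier results of these data known. The platform annotation ties 14217 genes to a probe set by a single symbol. Each of the 9 had 1 probe set, a short group of probes directed at a transcript, and all 9 probe sets were bright enough on average to be tested.

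Heme is built from glycine and succinyl-CoA in a chain of steps that starts and ends in mitochondria and runs through the cytosol in between. ALAS1, the first enzyme, sets the rate in liver, where much of the heme goes to cytochrome P450 proteins, and heme itself represses it. Heme oxygenases open the ring to biliverdin, iron and carbon monoxide, and biliverdin reductases turn biliverdin into bilirubin.

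The animals were male rats of the outbred Sprague-Dawley strain, labelled as 8 weeks old, on the same commercial diet. One group had drunk hydrogen water with 0.7 mM dissolved hydrogen for 4 weeks, and the control group had drunk sterilized distilled water for the same time. The study kept 8 animals per group, and 4 liver arrays of hydrogen water animals and 4 of control animals were analysed here. Nothing ties an array to a given animal or states whether livers were pooled. The p-values therefore reflect how far these 4 arrays of a group differ, which may be technical.

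Hepatocyte markers were bright on every array. The summed signal of 7 of them, Alb and Apoa1 among them, ran from 60844 to 62582 on hydrogen water arrays and from 59611 to 63808 on control arrays, and 0 of the 7 passed, with or without adjustment. Of 5 endothelial markers 0 passed and 2 had unadjusted p-values below 0.05, beside 12.5% of all tested probe sets, with summed signals of 2003 to 2273 on hydrogen water arrays and 1800 to 2101 on control arrays. The 2 were Stab2 and Lyve1, higher with hydrogen water by 0.42 ± 0.13 and 0.38 ± 0.13 on the log2 scale (SE). Pecam1, Kdr and Vwf had negative changes. All 5 lymphocyte markers on the array were too dim to test, with sums of 25.8 to 65.3 on hydrogen water arrays and 52.6 to 70.5 on control arrays. The hydrogen water arrays were dimmer before normalization, with a 2% trimmed mean signal of 91.5 ± 10.4 against 115 ± 18.7 on control arrays (SD, n = 4 each; exact permutation p = 0.114, two-sided). Spike-in control probe sets were also dimmer there, at a mean log2 signal of 9.05 ± 0.08 against 9.44 ± 0.30 (SD, n = 4 each, exact permutation p = 0.0857, two-sided). For Gapdh, the signal at the 3′ end over that at the 5′ end, which grows as RNA degrades, had a log2 value of 0.38 ± 0.08 on hydrogen water arrays and 0.22 ± 0.10 on control arrays (SD, n = 4 each; exact permutation p = 0.0571, two-sided). With 4 arrays a group, precision is limited by their number. All values below are log2 signals after quantile normalization, and a change is hydrogen water minus control on that scale. In liver tissue, fewer cells of a type and less RNA per cell cannot be told apart.

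Of the 9 genes, Alas1 alone passed the test, and it fell. Because the 9 were chosen with earlier results of these data known, the counts that follow are a description. In limma with Benjamini-Hochberg adjustment over all 15521 tested probe sets, 1 of 9 passed an adjusted p of 0.05, set against 0.818% of all tested probe sets (127), with 0.374% lower and 0.445% higher in hydrogen water livers. Groups did not overlap at 1 of 9, beside 7.48% of all tested probe sets. The other 8 genes differed by less than 0.2 in either direction, as did 65.5% of all tested probe sets. The median change of the 9 was −0.03, beside −0.00 over all tested probe sets. Counted without adjustment, 1 of the 9 had a p under 0.05, beside 12.5% of all probe sets.

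Alas1 encodes the housekeeping form of 5-aminolevulinate synthase, the entry step. The deposited signals, before any normalization, were 902, 1566, 683 and 947 on hydrogen water arrays 1 to 4, against 2767, 1994, 2651 and 1934 on control arrays 1 to 4. After normalization its log2 signal was 10.14, 10.71, 9.68 and 9.86 on hydrogen water arrays 1 to 4, against 11.15, 11.09, 11.00 and 10.92 on control arrays 1 to 4. All 4 hydrogen water arrays lay below all 4 control arrays, which 3.63% of all tested probe sets also did. The hydrogen water arrays were spread widely, with array 2 nearest to the control range and array 3 farthest from it. The mean was 10.10 ± 0.45 in hydrogen water livers and 11.04 ± 0.10 in control livers (SD, n = 4 each). The change was −0.94 ± 0.18 (SE, limma adjusted p = 0.0404), a 1.92-fold lower signal, with a 95% interval of the ratio from 0.394 to 0.685. A change of this size or more in either direction was seen at 1.24% of all tested probe sets, and Alas1 stood 112th of them in order of p.

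The fall of Alas1 kept its direction in all 22 alternative fits, but the call held in only 1 of 8 fits that left out 1 array. The limma change stayed past the threshold without hydrogen water array 2, at −1.15 (adjusted p = 0.0030). It missed the threshold without hydrogen water array 1 (−0.95, adjusted p = 0.106), array 3 (−0.80, 0.0934) or array 4 (−0.87, 0.112). It also missed without control array 1 (−0.91, adjusted p = 0.102), array 2 (−0.93, 0.118), array 3 (−0.96, 0.0548) or array 4 (−0.98, 0.0836). With array brightness as a covariate, an alternative added after seeing the data, the change was −0.86 ± 0.26 (SE, limma adjusted p = 0.264), and only 12 probe sets passed in all. With the Gapdh ratio as a covariate, added in the same way, it was −1.25 ± 0.23 (SE, limma adjusted p = 0.0304). Beyond these fits, the part of brightness and RNA quality in the result was not tested.

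**Figure D1:**
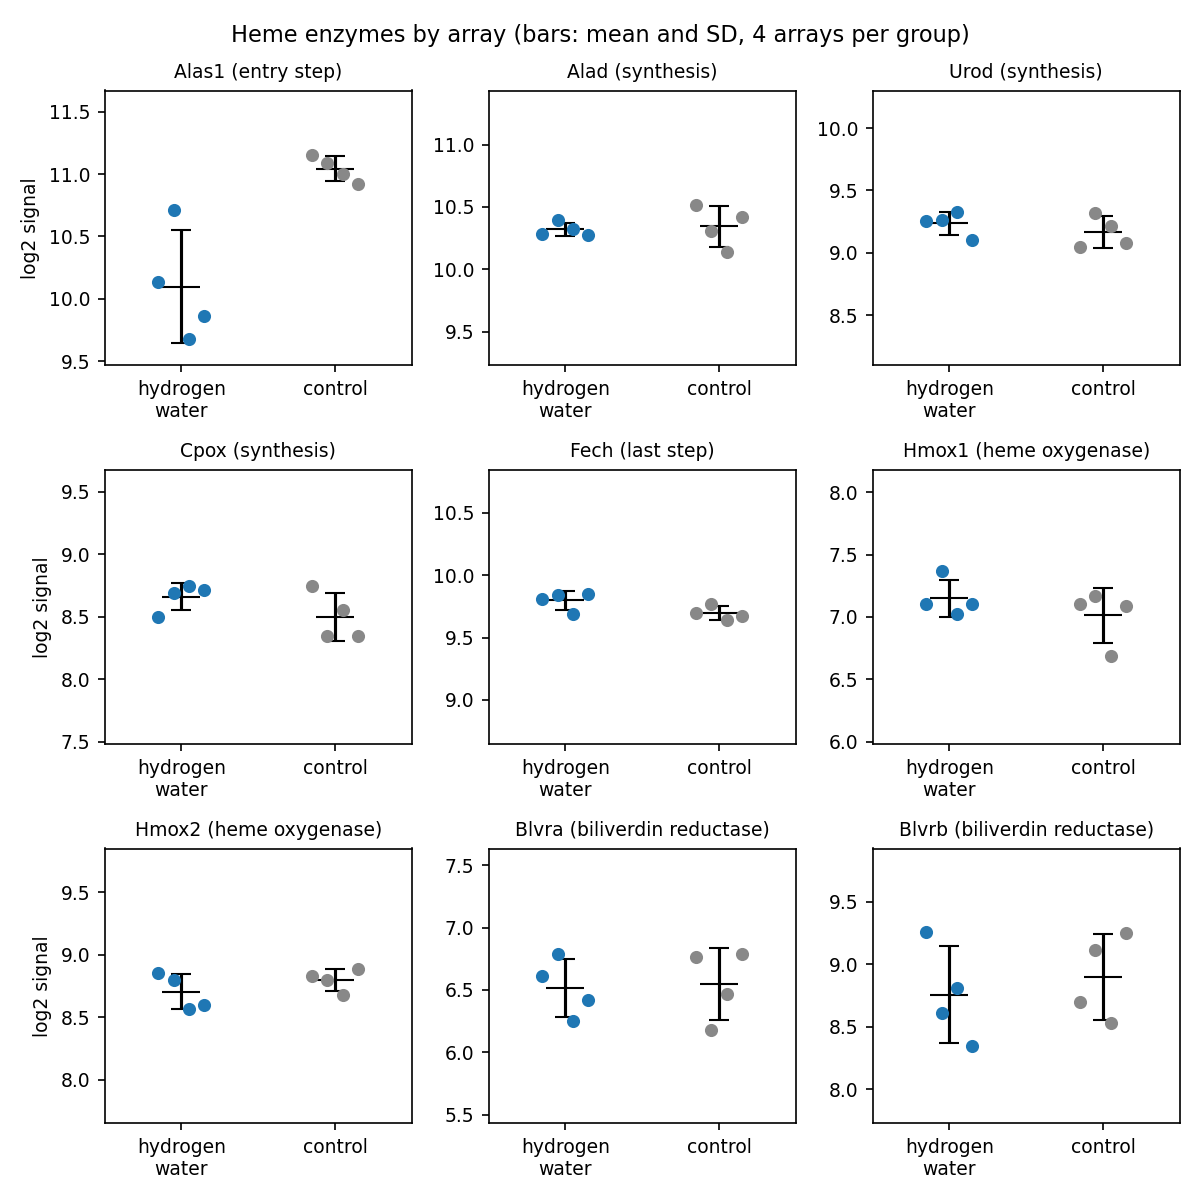
Log2 signal of each of the 9 genes on every array, with hydrogen water (blue) left of control (grey), and bars for the mean and SD of 4 arrays. Every panel spans the same height on the log2 scale. The 4 hydrogen water points of Alas1 lie between 9.68 and 10.71, all below the control points at 10.92 to 11.15, and the groups overlap in the other 8 panels.

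The DNA before the start of Alas1 and of Alad, the enzyme of the next step, is shown because the first gene fell and the second did not pass. Both are RefSeq sequences of the rat build GRCr8, on the minus strand, 250 bases before to 20 after the annotated start, at chr8:115768623-115768892 for Alas1 and chr5:80987882-80988151 for Alad. Capitals mark matches, on either strand, to the 4 motifs searched, which were the core site of the nuclear respiratory factor NRF1 (GCGC and TGCGC with any 1 base between them), the E-box CACGTG, the nuclear receptor site AGGTCA and the antioxidant response element TGACNNNGC.
Alas1: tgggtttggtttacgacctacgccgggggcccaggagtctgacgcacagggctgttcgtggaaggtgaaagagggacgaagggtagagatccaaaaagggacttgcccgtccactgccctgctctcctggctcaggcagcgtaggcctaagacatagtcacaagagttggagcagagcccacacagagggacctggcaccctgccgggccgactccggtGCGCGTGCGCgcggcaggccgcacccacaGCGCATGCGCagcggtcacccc
Alad: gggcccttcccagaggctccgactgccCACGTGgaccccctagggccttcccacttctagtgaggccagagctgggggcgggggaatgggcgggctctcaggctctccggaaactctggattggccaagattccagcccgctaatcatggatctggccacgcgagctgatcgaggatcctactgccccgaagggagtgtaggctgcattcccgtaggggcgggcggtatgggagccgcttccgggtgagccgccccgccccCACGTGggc

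Among the 9 genes, 7 had an entry in the promoter table, with 2 entries for Hmox2, and Cpox and Hmox1 are named only. Alas1 carried the NRF1 core at 2 places, with first bases at −31 and −2 from the annotated start, and the promoters of the other 6 held no such letters. The search covered the whole promoter entries of 300 bases, which run further past the start than the stretches shown. NRF1 is a transcription factor of nuclear genes for mitochondria. Over all 33469 promoter entries of 300 bases, 4.26% held this core and 0.624% held it at 2 or more places. The E-box was found in Alad, at 2 places, and in Urod, against 6.42% of all promoters. The nuclear receptor site was found in 1 entry of Hmox2, against 16.2%, and the antioxidant response element in Hmox2 and Blvra, against 12.1%. Of the motifs searched, Alas1 held only the NRF1 core and Alad only the E-box. These are matches of letters and say nothing of binding. The transcript of NRF1 itself (Nrf1) had a dim log2 signal of 4.80 in hydrogen water livers and 5.13 in control livers and did not pass (change −0.33 ± 0.30, SE, limma adjusted p = 0.734).

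Of the 4 synthesis enzymes downstream of Alas1, 0 passed. Alad, which joins a pair of 5-aminolevulinate molecules into porphobilinogen, had log2 signals of 10.28, 10.40, 10.32 and 10.28 on hydrogen water arrays, against 10.51, 10.31, 10.14 and 10.42 on control arrays. The hydrogen water values sat inside the control range. The change was −0.03 ± 0.09 (SE), with a 95% interval from −0.22 to 0.17.

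Urod, which removes carboxyl groups from uroporphyrinogen in the cytosol, had log2 signals of 9.26, 9.26, 9.33 and 9.10 with hydrogen water and 9.05, 9.32, 9.21 and 9.08 in controls. Cpox, which makes protoporphyrinogen in mitochondria, had 8.50, 8.69, 8.75 and 8.71 with hydrogen water and 8.74, 8.34, 8.56 and 8.35 in controls. Both sets of arrays overlapped, and control array 1 was the high one for Cpox. The changes were 0.07 ± 0.09 for Urod and 0.16 ± 0.11 for Cpox (SE).

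Fech, ferrochelatase, places iron into the finished ring and closes the pathway. It had log2 signals of 9.81, 9.84, 9.69 and 9.85 on hydrogen water arrays, against 9.70, 9.77, 9.64 and 9.67 on control arrays. Hydrogen water arrays 1, 2 and 4 lay above every control array and array 3 lay within them. The change was 0.10 ± 0.07 (SE, 95% interval −0.06 to 0.26), the smallest error among the 9. The limma adjusted p-values of Alad, Urod, Cpox and Fech ran from 0.616 to 0.950.

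Neither heme oxygenase passed. Hmox1, the form induced by heme and oxidants, had log2 signals of 7.10, 7.37, 7.03 and 7.10 with hydrogen water, against 7.11, 7.17, 6.69 and 7.09 in controls. Control array 3 was low, and the other 3 control arrays were within the hydrogen water range. The change of Hmox1 was 0.14 ± 0.13 (SE, 95% interval −0.16 to 0.43, limma adjusted p = 0.758).

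Kupffer cells, the liver macrophages, take up aged red cells and carry much of the liver's Hmox1, so their markers were read beside it. None of 7 measured markers, Cd163, Clec4f and Cd5l among them, passed, and 0 of them had an unadjusted p under 0.05. Their summed signal ran from 3819 to 4658 on hydrogen water arrays and from 3494 to 4994 on control arrays, and their median change was 0.07. All 7 were bright enough to test.

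Hmox2, the constitutive form, had log2 signals of 8.85, 8.80, 8.57 and 8.60 on hydrogen water arrays and 8.83, 8.80, 8.68 and 8.88 on control arrays. Hydrogen water arrays 3 and 4 fell below the control range and the other 2 did not. The change was −0.09 ± 0.10 (SE, 95% interval −0.30 to 0.12, limma adjusted p = 0.777).

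The biliverdin reductases varied most between arrays of 1 group, apart from Alas1 in hydrogen water livers. Blvra, the form that acts on the main biliverdin isomer of adults, had log2 signals of 6.61, 6.79, 6.25 and 6.42 with hydrogen water and 6.76, 6.18, 6.47 and 6.79 in controls. Blvrb, which also reduces flavins, had 9.26, 8.60, 8.81 and 8.35 with hydrogen water and 8.69, 9.11, 8.53 and 9.25 in controls. The arrays of both groups were interleaved. The changes were −0.03 ± 0.17 for Blvra and −0.14 ± 0.20 for Blvrb (SE), with limma adjusted p-values of 0.973 and 0.850. The 95% interval of Blvrb, from −0.59 to 0.31, was the widest of the 8 genes that did not pass.

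**Figure D2:**
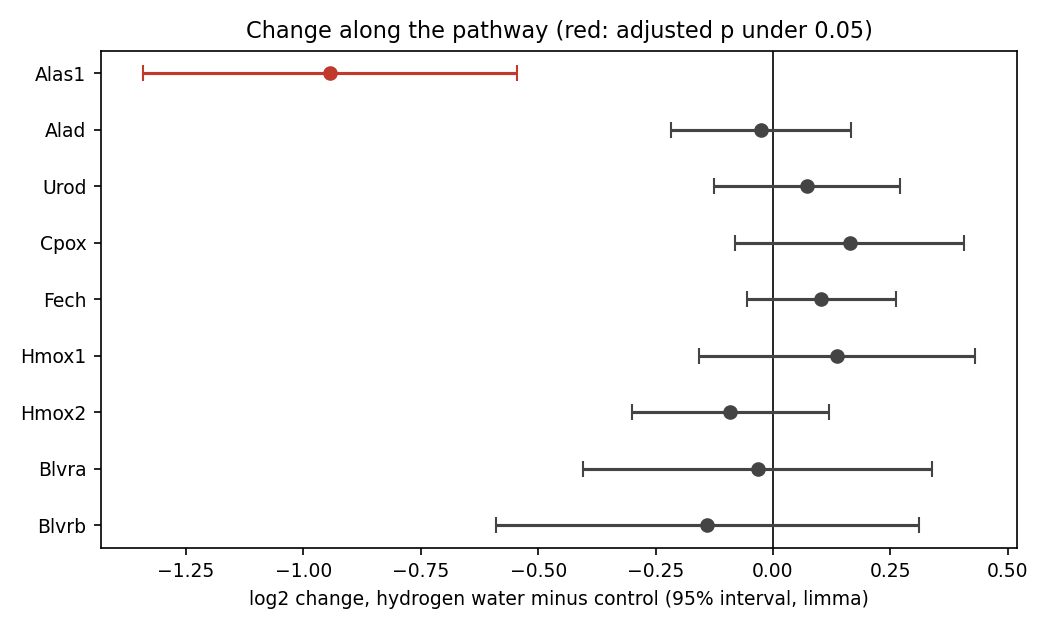
Change of each gene in log2 signal, hydrogen water minus control, from the entry step at the top to the last breakdown step at the bottom, with 95% intervals from limma. The interval of Alas1 runs from −1.34 to −0.55, and the intervals of the other 8 genes all include 0.

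The sign of the change turned under some scalings for Alad, Urod, Cpox, Fech and Hmox1, and stayed negative under the 5 other scalings for Alas1, Hmox2, Blvra and Blvrb. Without normalization the median of all tested probe sets was −0.33 and all 9 genes were lower in hydrogen water livers. In that fit Alas1 stood at −1.24 (limma adjusted p = 0.0023), and 505 probe sets passed in all. The p tests against no change and not against the shared shift. Spike-in scaling gave Alas1 −0.85 (adjusted p = 0.0674), so that it missed the threshold, and turned Alad positive, at 0.07.

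The log2 ratio of Alas1 to the median of the other 8 genes on the same array was read because a common factor of an array cancels in it. It was 1.08, 1.97, 0.90 and 1.21 on hydrogen water arrays 1 to 4, against 2.37, 2.13, 2.39 and 1.94 on control arrays 1 to 4. Hydrogen water array 2 lay just above control array 4, and the other 3 hydrogen water arrays lay below all controls. The mean was 1.29 ± 0.47 with hydrogen water and 2.21 ± 0.21 in controls (SD, n = 4 each), a difference of −0.92. From the deposited signals, with no normalization at all, the difference was −0.88, with 1.30 ± 0.45 in hydrogen water livers and 2.18 ± 0.21 in control livers (SD, n = 4 each). No test was run on these ratios, since the fall of Alas1 was already known.

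Taken gene by gene, the ratio of Alas1 to the other member was lower on every hydrogen water array than on every control array for 7 of 8 partners. All 8 ratios share the same Alas1 values, so they are not separate observations. The difference was largest for the ratio to Cpox, at −1.11, and smallest for the ratio to Blvrb, at −0.80, where the groups overlapped. The ratio to Fech, the other end of the synthesis chain, was 0.30 ± 0.41 with hydrogen water and 1.35 ± 0.09 in controls (SD, n = 4 each). The ratio to Hmox1, the first breakdown step, was 2.95 ± 0.31 with hydrogen water and 4.03 ± 0.21 in controls (SD, n = 4 each). The height of a ratio also depends on how brightly each probe set binds, so the values are read between groups and not between genes.

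**Figure D3:**
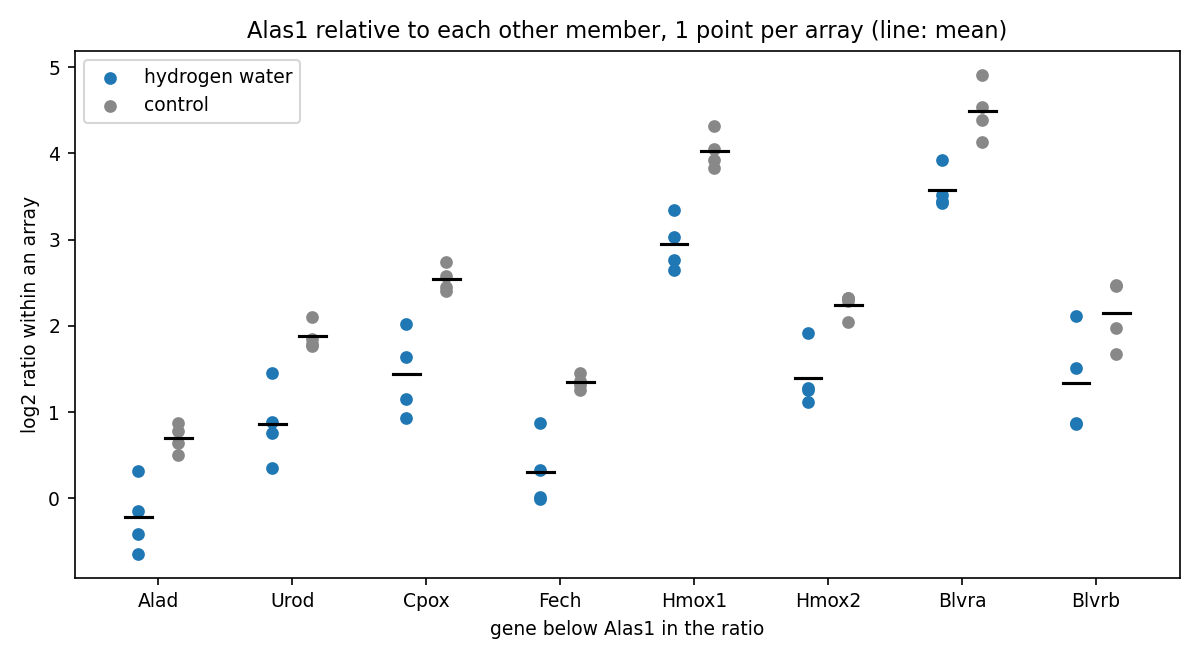
Log2 ratio of Alas1 to each of the other 8 genes on the same array, hydrogen water (blue) left of control (grey), 1 point per array and a line for the mean. For 7 of 8 partners every hydrogen water point lies below every control point, and the groups overlap for Blvrb.

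The remaining genes of the pathway were read from lists, and none of the 3 measured synthesis enzymes outside the 9 passed, with or without adjustment. Ppox, which oxidizes protoporphyrinogen, differed by 0.10 ± 0.21, and Uros, which closes the ring, by −0.31 ± 0.21, with 0.09 ± 0.25 at a second probe set (SE). Alas2, the erythroid form of the entry enzyme, had log2 signals of 5.77, 7.19, 6.73 and 6.41 with hydrogen water, against 5.90, 6.35, 6.00 and 6.09 in controls. Hydrogen water arrays 2, 3 and 4 lay above all controls and array 1 below them, and the change of 0.44 ± 0.26 did not pass (SE, limma adjusted p = 0.541). Of 5 erythroid markers on the array, Epb42 and Ahsp were too dim to test and 0 of the other 3 passed, with or without adjustment, with Hbb at 0.31 ± 0.14 (SE). The summed signal of the 5 ran from 3532 to 5563 on hydrogen water arrays and from 2842 to 4257 on control arrays, and its part in the Alas2 values was not tested.

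Among 14 tested genes that carry heme or porphyrins or act on the enzymes, 0 passed. The median change was −0.01, and an unadjusted p below 0.05 was found for 1, no more than the 12.5% of all tested probe sets. That gene was Flvcr2, a membrane transporter related to the heme exporter FLVCR1. Its log2 signal was 4.74, 5.24, 4.34 and 4.80 on hydrogen water arrays, against 5.55, 6.16, 5.86 and 5.49 on control arrays. The groups did not overlap, as at 7.48% of all tested probe sets, and the signal was dim in both. The change of −0.98 ± 0.22 missed the threshold (SE, limma adjusted p = 0.0729). Tspo, an outer mitochondrial membrane protein that binds porphyrins, differed by 0.32 ± 0.16, and Tmem14c, which moves protoporphyrinogen in mitochondria, by 0.16 ± 0.08 (SE).

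None of 4 scavenger genes passed, with or without adjustment. Hpx (hemopexin), the plasma carrier of free heme, differed by −0.10 ± 0.05, and Hp (haptoglobin), the carrier of free hemoglobin, by 0.08 ± 0.04 (SE). Both had groups without overlap, as had 7.48% of all tested probe sets. Hp held the same rank on all 4 control arrays, so that quantile normalization gave it an SD of 0 there. Lrp1, an uptake receptor of hemopexin, differed by 0.10 ± 0.09, with −0.14 ± 0.25 at a second probe set (SE).

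Of 4 tested genes of bilirubin disposal and of the electron supply of heme oxygenase, 0 passed and 2 had an unadjusted p under 0.05, beside 12.5% of all tested probe sets. Por, the P450 reductase that feeds electrons to heme oxygenases and P450s, had log2 signals of 10.47, 10.02, 10.15 and 10.08 with hydrogen water, against 9.68, 9.86, 10.01 and 8.54 in controls. The groups did not overlap, as at 7.48% of all tested probe sets, and control array 4 was low. The change of Por was 0.66 ± 0.27 (SE, limma adjusted p = 0.331), with 0.57 ± 0.22 at its second probe set. Slc10a1, the bile salt uptake carrier, differed by 0.21 ± 0.09, and Abcc2, which exports conjugated bilirubin into bile, by −0.13 ± 0.11 (SE).

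The transcriptional regulators linked to Alas1 had a median change of 0.43, the highest of the 7 lists, beside −0.00 over all tested probe sets. The list was chosen with earlier results of these data known and mixes coactivators with a repressor, so its median and counts are a description. Of 12 tested, 2 passed with a positive change, Foxo1 and Nr1d1, the second of which reached the test only through its hydrogen water arrays. The other 10 did not pass. Of all 12, with Foxo1 and Nr1d1 counted, 9 had an unadjusted p under 0.05, beside 12.5% of all probe sets. Cebpa, among the 9, had a negative change. The list median also includes Nr1d1. Nr1d1 encodes REV-ERB alpha, a heme-binding clock repressor, and it had log2 signals of 5.69, 6.12, 5.93 and 6.31 with hydrogen water against 3.81, 3.64, 4.05 and 4.63 in controls, a fitted change of 1.98 ± 0.24 (SE, limma adjusted p = 0.0056). Its mean control signal of 4.03 lay below the filter on mean signal, at 4.41, where no detection calls set signal apart from background, so both the size and the p are uncertain and the call is given as a description. Foxo1, a transcription factor restrained by insulin, had 8.45, 8.03, 8.59 and 8.07 with hydrogen water against 7.03, 6.97, 7.81 and 6.91 in controls, and rose by 1.11 ± 0.21 (SE, limma adjusted p = 0.0357). Neither gene overlapped between groups, with hydrogen water above control as at 3.85% of all tested probe sets, and control array 3 was the high control for Foxo1.

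The rise of Foxo1 missed the limma threshold without any 1 of 6 arrays. The value was 1.05 without hydrogen water array 1 (adjusted p = 0.110), 1.00 without array 3 (0.0975) and 1.18 without array 4 (0.0676). It was 1.06 without control array 1 (adjusted p = 0.0928), 1.04 without array 2 (0.108) and 1.02 without array 4 (0.0994). A second Foxo1 probe set differed by 0.39 ± 0.26 (SE). With array brightness as a covariate neither gene passed, at adjusted p-values of 0.0645 for Nr1d1 and 0.162 for Foxo1.

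The coactivators Ppargc1a and Ppargc1b and the receptors Nr1i2 and Nr1i3 had positive changes that did not pass. Ppargc1b, the coactivator PGC-1 beta, had log2 signals of 6.62, 5.84, 6.61 and 6.00 with hydrogen water against 5.49, 5.26, 5.54 and 5.19 in controls. Its groups did not overlap, with hydrogen water above control as at 3.85% of all tested probe sets. Its change was 0.90 ± 0.20 (SE, limma adjusted p = 0.0672). Ppargc1a, the coactivator PGC-1 alpha, which induces Alas1 in fasted mouse liver, was named after its values were seen. It had 6.54, 5.65, 6.77 and 5.88 with hydrogen water against 4.33, 5.56, 5.81 and 5.09 in controls. The groups overlapped, and the change was 1.02 ± 0.33 (SE, limma adjusted p = 0.218). A second tested probe set of Ppargc1a differed by 0.82 ± 0.36 (SE). The xenobiotic receptors Nr1i2 (PXR) and Nr1i3 (CAR) differed by 0.41 ± 0.11 and 0.45 ± 0.13 (SE). Of the 12, Cebpa, Nrf1 and Esrra had negative changes, the largest −0.54 ± 0.16 for Cebpa (SE, limma adjusted p = 0.172). The other tested probe sets of Cebpa were also lower, from −0.57 ± 0.19 to −0.36 ± 0.13 (SE). Cebpa, Nrf1 and Esrra were also named after their values were seen.

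Of 7 tested regulators of Hmox1, 0 passed and the median change was −0.09. Before adjustment, 4 of the 7 reached p below 0.05, beside 12.5% of all tested probe sets. Atf4, a stress factor that binds the Hmox1 gene, had log2 signals of 9.96, 10.12, 10.08 and 9.88 with hydrogen water against 10.31, 10.78, 10.42 and 10.58 in controls. Every hydrogen water array lay below every control array, as at 3.63% of all tested probe sets. The change of −0.51 ± 0.10 narrowly missed (SE, limma adjusted p = 0.0513). Nfe2l2, which encodes the oxidant sensor's transcription factor NRF2, also showed no overlap, at −0.36 ± 0.12 (SE, limma adjusted p = 0.218). Mafg, a small partner of NRF2 and of the repressor BACH1, differed by 0.42 ± 0.15 (SE). Its second probe set differed by 0.35 ± 0.18 (SE). Bach1 was too dim to test.

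Of 18 tested hemoproteins of liver, the P450s and catalase among them, 0 passed and 3 reached p below 0.05 before adjustment, a share near the 12.5% of all tested probe sets. The median change was 0.01, and the range ran from −0.26 to 0.51. Cyb5b, an outer mitochondrial membrane cytochrome, differed by 0.41 ± 0.11, with 0.26 ± 0.14 at a second probe set, and Tdo2, the heme enzyme that opens the tryptophan ring, by 0.51 ± 0.15 (SE). Cyp27a1, a mitochondrial sterol hydroxylase, differed by 0.17 ± 0.06 (SE). The limma adjusted p-values of these 3 ran from 0.141 to 0.216.

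**Figure D4:**
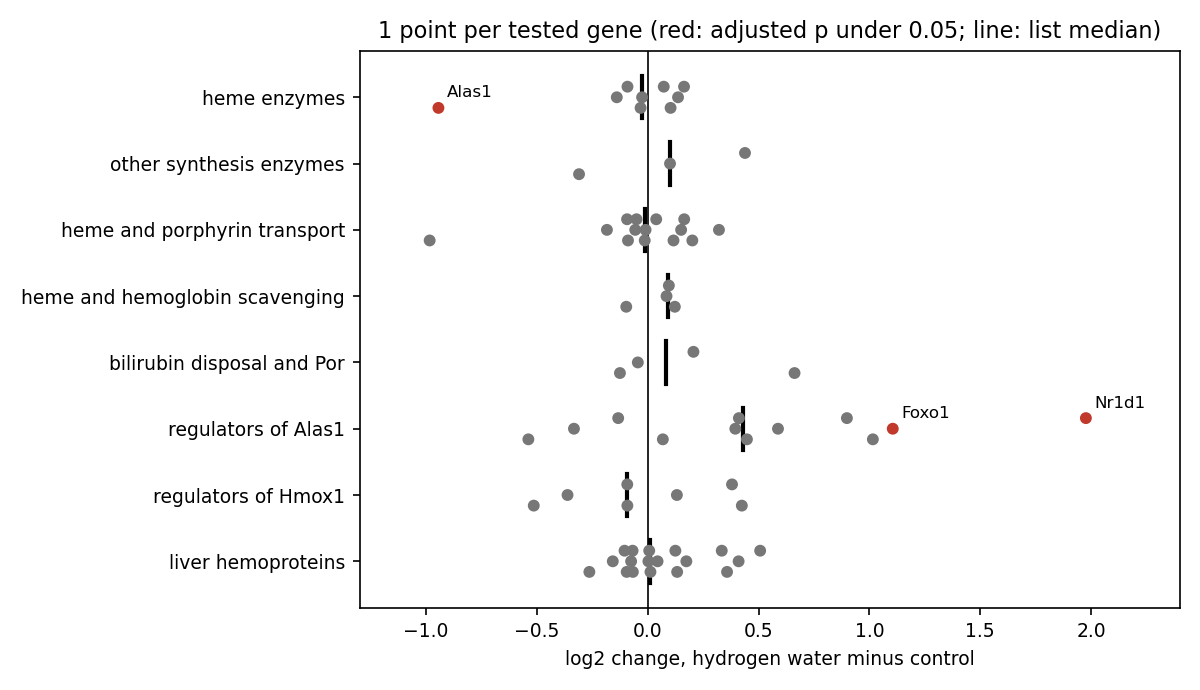
Change in log2 signal, hydrogen water minus control, of each tested gene in the heme enzyme group and in 7 lists of related genes, 1 point per gene, with a line at the list median and red points for adjusted p under 0.05. Alas1 lies to the left at −0.94, Foxo1 and Nr1d1 to the right at 1.11 and 1.98, and the median of the Alas1 regulators at 0.43.

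The genes whose signal followed Alas1 most closely within the groups were named by the Pearson r over 8 arrays after each group mean was subtracted. Among 12231 named probe sets they were Rbm3, Ppp2r5c, Mesd, Ppp3ca and Epc2, with r from 0.955 to 0.976. The genes that ran most nearly opposite were Antxr2, Lyplal1, LOC100909729, Rsrc2 and Glod4, with r from −0.981 to −0.968. None of these 10 passed the comparison of hydrogen water with control (limma adjusted p from 0.198 to 0.959). The ranking rests on 8 arrays, but Alas1 varied mostly among the hydrogen water arrays, with an SD of 0.45 against 0.10 in controls. The names are a description with no test.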

How the data were processed

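Liver RNA of 4 hydrogen water and 4 control samples was labelled with biotin for Affymetrix arrays by the maker's standard method, per the labels' protocols. The deposited values are intensities on a linear scale that the authors computed with MAS5, per the submitters' processing notes. For its version, scaling target and detection calls, the sources used here give nothing. To each value 2.05 was added as a pseudocount, 10% of the median over the table, and log2 was taken. The 31042 probe sets other than 57 controls were quantile-normalized, which hides any shift shared by most transcripts. Fold changes of dim probe sets are understated. Probe sets with a mean at or above the median (15521) were tested in limma 3.58.1 under R 4.3.3, using lmFit followed by eBayes with a trend, at an adjusted p of 0.05. The fit was also run on simulated data, with independent normal values and the same SD in both groups. That run held no differences between whole arrays, so it says nothing of brightness or RNA quality.

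Names came from the platform annotation, which gives 1 symbol for 20826 probe sets, several for 436 and none for 9780. RefSeq (GRCr8) held 20758 of the first by Entrez ID. Each listed gene stands at its brightest tested probe set. The named genes were all 9 members, those of each list past the threshold with up to 3 more in order of p, and the 5 most and 5 least like Alas1. The members and lists were chosen with earlier results of these data known.

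Alternatives were 5 other scalings, 2 pseudocounts, 2 filters, a prior with no trend, weights per array, a replicate block and leaving out each array. Covariates for array brightness and for the Gapdh ratio were added after seeing the data. No 2 arrays held identical values.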

Additional observations from a re-analysis of the deposited data

Results flagged for a closer look

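Among 69 groups of 4 arrays checked, for the genes named and the array measures, 2 held an array far from the other 3, where chance would flag about 1 in 20. Control array 3 had a low log2 signal of 6.69 for Hmox1, with the nearest control at 7.09. The same array had a high log2 signal of 7.81 for Foxo1, with the nearest control at 7.03.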

How the results depend on the processing

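The fall of Alas1 was negative under all 22 alternatives and passed in 10 of the 14 that kept every array. It missed with spike-in scaling (−0.85), a stricter filter on mean signal (−0.94), no trend in the prior (−0.94) and array brightness as a covariate (−0.86), where 0 members passed. Leaving out 1 array gave −1.15 to −0.80, with 0 to 1 members past the threshold. Within arrays the ratio to the other members stayed between −1.14 and −0.79. The count of all probe sets past the threshold was 505 with no normalization, 64 with no trend, 12 with the brightness covariate and 239 with the Gapdh covariate, and 55 to 197 without 1 array. For these changes the cause was not tested. Foxo1 also missed with no normalization (0.75) and no trend (1.11). Signs turned with no normalization for Urod (−0.25), Cpox (−0.17), Fech (−0.22) and Hmox1 (−0.22), with trimmed mean scaling for Alad (0.0039), with spike-in scaling for Alad (0.069), with brightness for Urod (−0.028) and Blvra (0.11), and with the Gapdh covariate for Hmox1 (−0.081). Without 1 array, Alad ran from −0.096 to 0.031 and Blvra from −0.16 to 0.057. List medians with no normalization were −0.26 for other synthesis enzymes, −0.33 for transport, −0.22 for scavenging, −0.18 for bilirubin disposal, 0.11 for Alas1 regulators, −0.42 for Hmox1 regulators and −0.20 for hemoproteins. Spike-in scaling gave 0.17 for scavenging, 0.21 for bilirubin disposal and 0.19 for hemoproteins, and trimmed mean scaling 0.14 for bilirubin disposal. With a replicate block Alas1 was −0.94 (limma adjusted p = 0.0193), and 178 probe sets passed. Arrays with the same number correlated at −0.10, 0.04, 0.20 and −0.00 in their deviations. These values cannot settle whether equal numbers mark pairs, and the labels do not say. Without detection calls, dim signals cannot be set apart from background.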
